A study of Mus musculus with 6 samples.

Results

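The CLCA genes of the mouse were followed in the colon of mice that lack Hnf4α in the gut epithelium. They were defined as every gene whose symbol begins with Clca and a digit and which has at least 1 probe set on the array naming that gene alone. This gave 8 of the 18193 genes measured, with 11 probe sets between them, and 1 further probe set named both Clca3a1 and Clca3a2. Clca3a1, Clca3a2, Clca3b, Clca4a, Clca4b, Clca1 and Clca2 code for proteins, and Clca4c-ps is a transcribed pseudogene. Where a gene had more than 1 probe set, the one with the brightest average over the arrays stood for it, and the others served as a check.

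RNA was taken from the proximal colon of 3 Hnf4α mutant mice and 3 controls at 1 year of age, with 1 mouse per Affymetrix mouse genome array. Mutants carried loxP-flanked Hnf4a on both alleles and Cre recombinase under the 12.4 kb Villin promoter, which is active in the intestinal epithelium and not in muscle or stroma. Controls were littermates, labelled wild type, and every mouse of both groups received ketamine and xylazine before it was killed. The RNA came from the whole tissue, in which fewer cells of a type and less RNA per cell cannot be told apart.

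Hnf4a itself gave log2 signals of 12.23, 12.01 and 11.97 in control replicates 1, 2 and 3 and of 10.17, 10.09 and 10.15 in mutant replicates 1, 2 and 3. The labels call the 3 controls and mutant replicate 1 female and mutant replicates 2 and 3 male. Xist, the RNA of the inactive X chromosome, ranged from 9.94 to 10.96 in controls and from 5.03 to 5.32 in mutants. The Y-linked gene Eif2s3y ranged from 2.75 to 3.16 in controls and from 7.85 to 8.12 in mutants. Mutant replicate 1 therefore went against its label, and sex and genotype cannot be told apart in any comparison given here. Mutant replicate 2 stood apart in its muscle and matrix RNA: 14 smooth muscle markers had a median log2 signal, relative to the control mean, of -3.68 there and of -0.29 and -0.46 in mutant replicates 1 and 3.

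CLCA proteins were first taken for chloride channels and were named after that activity. They are now known as secreted or membrane-anchored proteins that cut themselves with a built-in metalloprotease domain and modify channels, mucus and cell contacts from outside the cell. In the gut, Clca1 is a major protein of goblet cell mucus, while Clca4a and Clca4b are genes of absorptive enterocytes. The mouse genes have been renamed. By the synonyms of the RefSeq table, Clca1 was formerly called Clca3 or gob-5, Clca3a1 was Clca1, Clca3a2 was Clca2, Clca3b was Clca4, Clca4b was Clca7 and Clca2 was Clca5.

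The 8 genes lie side by side on chromosome 3 in RefSeq (GRCm38.p6), in the order Clca3a1, Clca3a2, Clca3b, Clca4c-ps, Clca4b, Clca4a, Clca1 and Clca2, with no other protein-coding gene among them. Promoter windows of 300 bases, from 250 before to 50 after a gene's start, were found for 5 of them, Clca3a1, Clca3a2, Clca3b, Clca4b and Clca2. The windows of Clca3a2 and Clca3b, the genes with the clearest rise in mutants, shared a block of 119 bases with 1 substitution. The block ran from position -69 to position 50 of Clca3a2 and from position -77 to position 42 of Clca3b, counted from the start. It held unbroken runs of 39 and 79 identical bases, and each run was found in 2 of the 32851 windows of the table, those of these genes. In Clca3a2 the whole block lies inside the annotated gene span, and whether the block has a part in the rise was not tested. The longest run shared by any other pair of the 5 windows was 7 to 9 bases long. The stretches before the start are shown because they set this pair apart from Clca3a1, their neighbour in the cluster. All are written 5′ to 3′ on the minus strand, and capitals mark runs of at least 8 bases that were identical in the alignment of Clca3a2 with Clca3b. Clca3a2 is given at chr3:144819534-144819563, Clca3b at chr3:144849303-144849392 and Clca3a1 at chr3:144760978-144761067. Only 30 bases are given for Clca3a2, since its annotated gene span goes on for 129 bases upstream of the start used in the table.
Clca3a2: TATGCAAATATTCTGGCCGTGATTCAAATT
Clca3b: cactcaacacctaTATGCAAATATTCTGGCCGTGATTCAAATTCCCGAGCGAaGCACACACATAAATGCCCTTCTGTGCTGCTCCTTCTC
Clca3a1: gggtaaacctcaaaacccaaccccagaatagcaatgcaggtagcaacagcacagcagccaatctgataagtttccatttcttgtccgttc

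**Figure D1:**
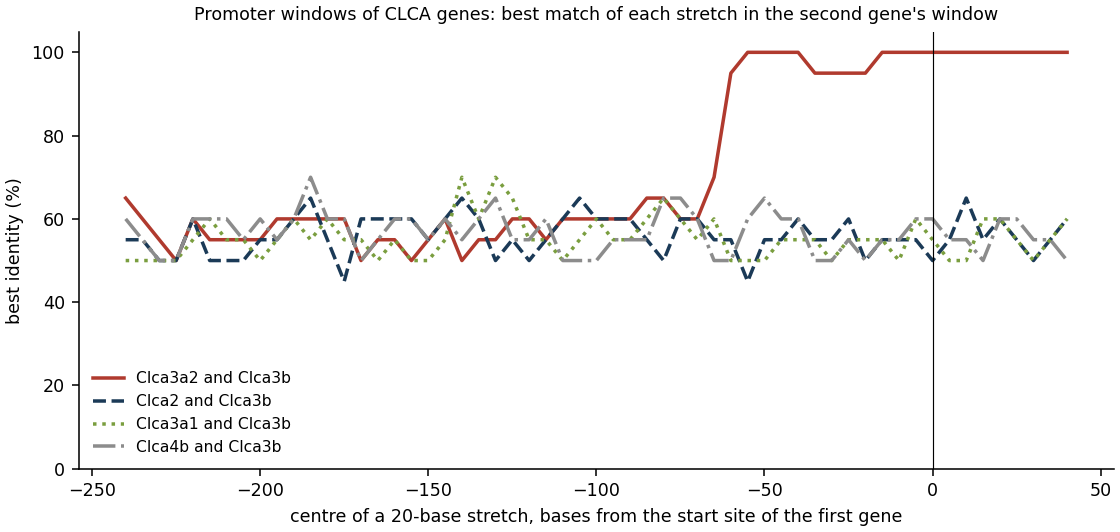
Identity between promoter windows of CLCA genes, with the position in the window relative to the start on the horizontal axis (bases) and, on the vertical axis, the percent of bases of each 20-base stretch that matched its best counterpart in the Clca3b window. For Clca3a2 the identity was 100% around the start and between 50% and 70% in stretches centred at -65 and further upstream. For Clca3a1, Clca4b and Clca2 it stayed between 45% and 70% along the window. The median over the window was 60% for Clca3a2 and 55% for each of the others.

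Letter patterns were searched on both strands of the 5 windows. The octamer ATGCAAAT, which POU factors bind, stood in the shared block of Clca3a2 (positions -68 to -61) and of Clca3b (positions -76 to -69), and 1.74% of all windows held it. CAAAGNNCA, part of the repeat that HNF4 proteins bind, was present in Clca3a1 at positions 17 to 25, and 6.36% of all windows held it. AACNGGTT, the pattern of grainyhead factors, was in none of the 5 and in 2.09% of all windows. The patterns do not overlap each other, and a match is a run of letters and not a measured binding site.

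In the mutants 2 of the 8 CLCA genes rose, Clca3a2 and Clca3b, and none fell (limma, adjusted p under 0.05). Over all genes measured 0.484% rose and 0.396% fell by the same rule. At an unadjusted p under 0.05 limma gave 3 of the 8 as higher and 1 as lower, against 10.0% and 6.18% of all genes. Clca3a1 and Clca4b were also higher in all 3 mutants than in any control, and Clca1 was lower in all 3, but these differences did not pass the test. Thus 4 genes lay above the controls without overlap, as did 14.5% of all genes, and 1 lay below, as did 8.86%. The difference was positive for 7 of the 8 genes, although that of Clca2 turned negative under either scaling to gut epithelium markers and those of Clca4a and Clca4c-ps under the uncentred one, and its median was 0.79 on the log2 scale, against 0.05 over all genes. With 3 mice per group an exact permutation test of a single gene gives no two-sided p below 0.1, which was the value for each of the 5 genes without overlap. SAM, the test named in the methods, at an unadjusted p of 0.05 or less took in 5 of the 8 genes, against 15.5% of all genes. The paper's list of changed transcripts also required a minimum ratio between the groups, which was not applied here.

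**Figure D2:**
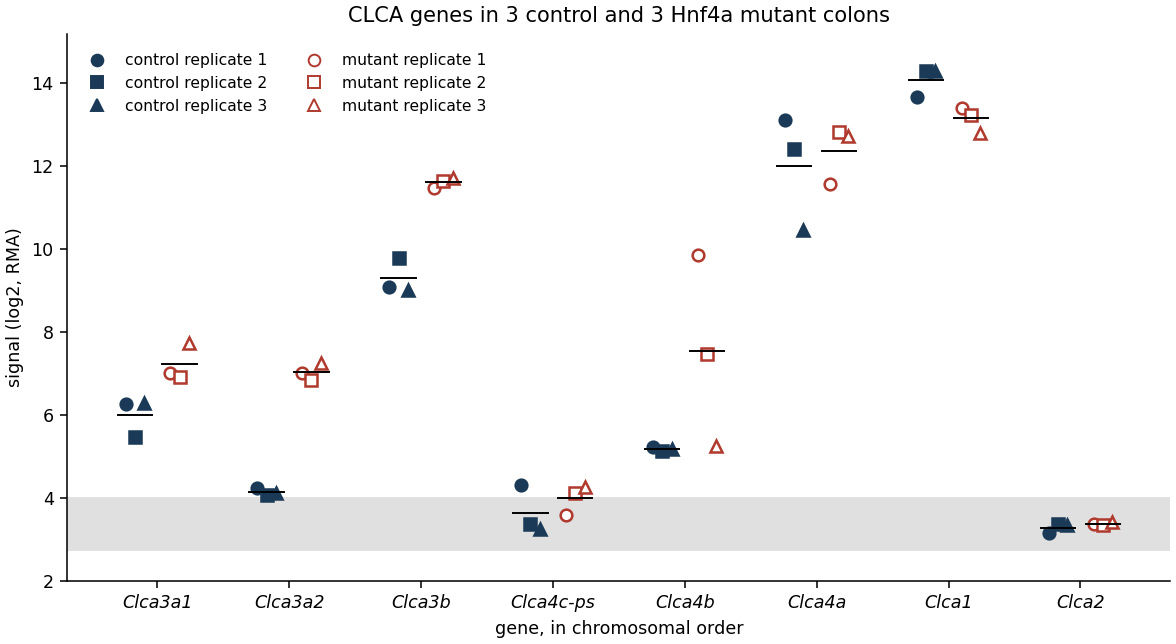
Log2 signal (vertical axis) of each CLCA gene, in the order of the genes on the chromosome, in each of the 6 arrays (controls filled, mutants open; lines, group means; grey band, 2.75 to 4.01, Y-linked genes in controls). The mutants of Clca3a2 lie between 6.85 and 7.25 and those of Clca3b between 11.48 and 11.72, both clear of the controls, while those of Clca4b spread from 5.26 to 9.87.

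Clca3a2, a gene described first in the mammary gland, passed the test with the smallest p of the family. Its log2 signal was 4.23, 4.07 and 4.11 in the controls and 7.02, 6.85 and 7.25 in the mutants. All 3 mutants were far above all controls, and the spread within either group was small. The means were 4.14 ± 0.085 (SD, n = 3) and 7.04 ± 0.20 (SD, n = 3), a measured log2 difference of 2.90 (standard error 0.13; limma, adjusted p = 0.0003) and a ratio of 7.47. The difference stayed between 2.80 and 3.00 whichever array was left out, and it passed limma's test each time. The control signals were close to what probe sets without a target gave here, between 2.75 and 4.01 for Y-linked genes in the controls. The control level of Clca3a2 RNA was therefore hardly measured. The difference and the ratio are lower bounds only if the probe set binds no related transcript, which was not tested.

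A second probe set of Clca3a2 was dim. It gave 2.58, 2.41 and 2.60 in controls and 3.06, 3.01 and 3.79 in mutants, a log2 difference of 0.76 (adjusted p = 0.231 from limma), and none of these signals exceeded the highest of the Y-linked genes in the controls. The mutants were above the controls there too, without overlap. The probe set that names both Clca3a1 and Clca3a2 gave 6.41, 5.50 and 6.53 in controls and 7.73, 7.65 and 8.35 in mutants, a difference of 1.76 (standard error 0.31, adjusted p = 0.0807 from limma).

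Clca3b, which was first described in smooth muscle, was 9.09, 9.79 and 9.02 in the controls and 11.48, 11.65 and 11.72 in the mutants on the log2 scale. The mutants lay within 0.24 of each other and the highest control lay well below them. The control mean was 9.30 ± 0.43 (SD, n = 3) and the mutant mean 11.61 ± 0.12 (SD, n = 3), which is a 4.97-fold rise and a log2 difference of 2.31 (standard error 0.21; limma, adjusted p = 0.0114). Without control replicate 1 or without mutant replicate 3 the difference was 2.21 and 2.26, and it no longer passed limma's test (adjusted p = 0.0788 and 0.0668). Without mutant replicate 2, the array with the least muscle RNA, the log2 difference was 2.30 (adjusted p = 0.0377 from limma). The summed signal of the 14 measured smooth muscle markers ranged from 15.40 to 15.52 on the log2 scale in controls and from 11.74 to 15.22 in mutants, and its part in the Clca3b values was not tested. Scaled to 12 gut epithelium markers, Clca3a2 rose by 2.50 and Clca3b by 1.91, or by 2.73 and 2.14 with each marker first centred on its mean over the arrays, and both passed limma's test in either fit.

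Clca3a1, a gene of the mammary gland and of lymphatic vessels, gave 6.27, 5.47 and 6.28 in controls and 7.001, 6.92 and 7.74 in mutants. The groups did not overlap, with control replicate 2 the lowest and mutant replicate 3 the highest. The log2 difference was 1.21 (standard error 0.30, 95% interval 0.51 to 1.92) and did not pass the test (adjusted p = 0.174 from limma). Its chosen probe set is of a kind that the array design marks as able to bind related transcripts. The other probe set, without that mark, gave 3.90, 3.46 and 3.69 against 4.34, 4.44 and 5.14, a difference of 0.96 (adjusted p = 0.170 from limma). Its control signals lay within the range of the Y-linked genes, at background, so that this difference measures the change of Clca3a1 poorly. Of 10 measured markers of lymphatic and blood endothelium, 7 were below the controls in all 3 mutants (8.86% of all genes). None passed limma's test, the median difference was -0.69, and 2 were lower at an unadjusted p under 0.05 (6.18% of all genes). These were Pecam1, a junction protein of vessels (-0.80, adjusted p = 0.118 from limma), and Tek, the angiopoietin receptor (-0.98, adjusted p = 0.293 from limma). Without mutant replicate 2 the median of the list was -0.33. Their summed log2 signal was between 10.10 and 10.26 in controls and between 8.46 and 9.82 in mutants, and its part in the Clca3a1 values was not tested.

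The differences of the 3 neighbours at this end of the cluster were compared with each other. Within each array, Clca3a2 minus Clca3a1 was higher in the mutants by 1.69 and Clca3a2 minus Clca3b by 0.59, and neither overlapped the controls. Clca3b minus Clca3a1 was higher by 1.098, with overlap. In 7 pairs of CLCA genes compared in this way no p below 0.1 was possible, and the exact permutation p was 0.1 for these first pairs (adjusted p = 0.14 over the 7) and 0.2 for the third (adjusted p = 0.233). The control signals of Clca3a2 were near background, so that the size of its rise relative to its neighbours was not measured exactly.

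**Figure D3:**
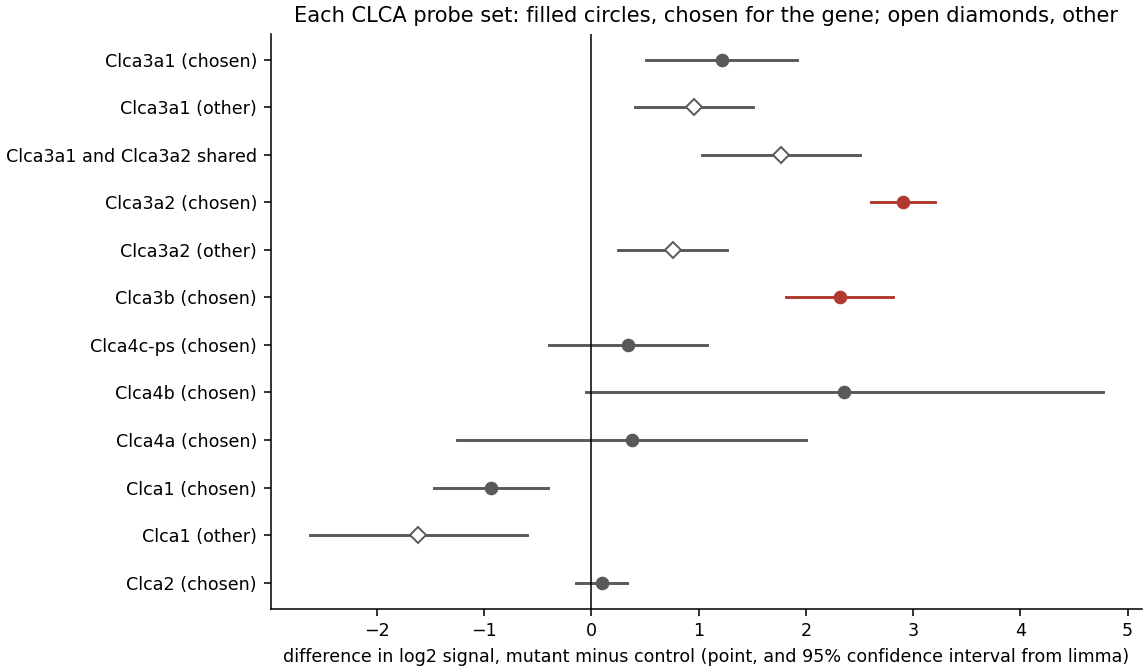
Log2 difference, mutant minus control, of every CLCA probe set with its 95% interval from limma (filled circles, the probe set chosen for the gene; open diamonds, the others; red, adjusted p under 0.05). Clca3a2 and Clca3b stand at 2.90 and 2.31 with narrow intervals, the interval of Clca4b reaches from -0.05 to 4.77, and both probe sets of Clca1 lie below 0.

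Clca4b, an enterocyte gene, differed most among the mutants themselves. It was 5.22, 5.14 and 5.18 in the controls and 9.87, 7.47 and 5.26 in mutant replicates 1, 2 and 3. The controls lay within 0.083 of each other, mutant replicate 3 was next to them, and mutant replicate 1 was over 4 log2 units above. The standard deviation was 0.042 in controls, where 5.88% of all genes had a lower one, and 2.30 in mutants, where 99.9% had a lower one. The log2 difference of 2.36 had a standard error of 1.02 and did not pass the test (adjusted p = 0.393 from limma). Relative to the median of the gut epithelium markers, mutant replicate 3 lay below every control, so that the groups overlapped. The log2 difference was 1.19 without mutant replicate 1 and 3.49 without mutant replicate 3. Although the mean difference was close to that of Clca3b (2.31), Clca3b minus Clca4b within an array ran from -2.51 to 2.33 in the mutants.

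Clca4a, its neighbour and also an enterocyte gene, was variable in both groups. It gave 13.12, 12.41 and 10.46 in controls and 11.56, 12.83 and 12.72 in mutants, with control replicate 3 the lowest of all arrays. The groups overlapped, and the log2 difference was 0.37 (standard error 0.69, 95% interval -1.25 to 2.002, adjusted p = 0.837 from limma). Without control replicate 3 it was -0.40. A standard deviation lower than that of Clca4a in controls, 1.38, was found for 99.8% of genes. Slc26a3, the chloride and bicarbonate exchanger of surface colonocytes, which was singled out after its values were seen, was also lowest in control replicate 3, at 11.24, against 12.79 and 12.81 in the other controls.

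Clca1, the goblet cell member, was the only CLCA gene with a negative difference on the deposited scale, and under the scalings to gut epithelium markers Clca2 was negative as well, as were Clca4a and Clca4c-ps with uncentred markers. Its log2 signal was 13.68, 14.30 and 14.29 in the controls and 13.41, 13.24 and 12.80 in the mutants. Every mutant was below every control, with control replicate 1 and mutant replicate 1 only 0.27 apart. The control mean was 14.09 ± 0.35 (SD, n = 3) and the mutant mean 13.15 ± 0.31 (SD, n = 3), with a log2 difference of -0.94 (standard error 0.22, 95% interval -1.47 to -0.41), which did not pass the test (adjusted p = 0.167 from limma). Scaled to the uncentred median of the gut epithelium markers, a fit in which 18127 probe sets were called, it was -1.33 and passed (adjusted p = 0.0256 from limma), and with centred markers it was -1.11 and did not (adjusted p = 0.111 from limma). The other probe set gave 6.35, 7.92 and 7.58 against 5.57, 6.18 and 5.27, also without overlap, and a difference of -1.61 (standard error 0.43, adjusted p = 0.200 from limma). Over the arrays left out in turn, the difference of the chosen probe set lay between -1.14 and -0.76.

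Clca1 was then set beside other goblet cell genes. Of 22 measured, none passed the test in either direction, 3 were lower and none higher at an unadjusted p under 0.05 (6.18% and 10.0% of all genes), and the median log2 difference was -0.20. Its median relative to the control mean was 0.03 in mutant replicate 1, -0.20 in mutant replicate 2 and -0.47 in mutant replicate 3. Ang4, an antimicrobial ribonuclease (log2 difference -2.37, adjusted p = 0.334 from limma), was the only one with a lower difference than Clca1, and Rep15, a partner of Rab15, came next at -0.87 (adjusted p = 0.344 from limma). Muc2, the gel-forming mucin of the colon, which was picked after its values were seen, differed by -0.16. By qRT-PCR, in contrast, the paper reported a significant decline of Muc2 RNA in older mutants. Its control mean on the array was 14.18. Clca1 minus the median of the goblet list was -0.30, 0.44 and -0.13 in controls and -0.70, -0.64 and -0.81 in mutants, lower by 0.72 on average. The groups did not overlap in this measure (two-sided exact permutation p = 0.1). Zg16, also in the goblet list, lay between 14.03 and 14.06 in all 6 arrays, and the control mean of Clca1 was 14.09. Whether differences are compressed at signals this bright was not tested, which limits both the rank of Clca1 and this measure. The dimmer probe set of Clca1 differed by -1.61, against -0.94 for the chosen one.

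**Figure D4:**
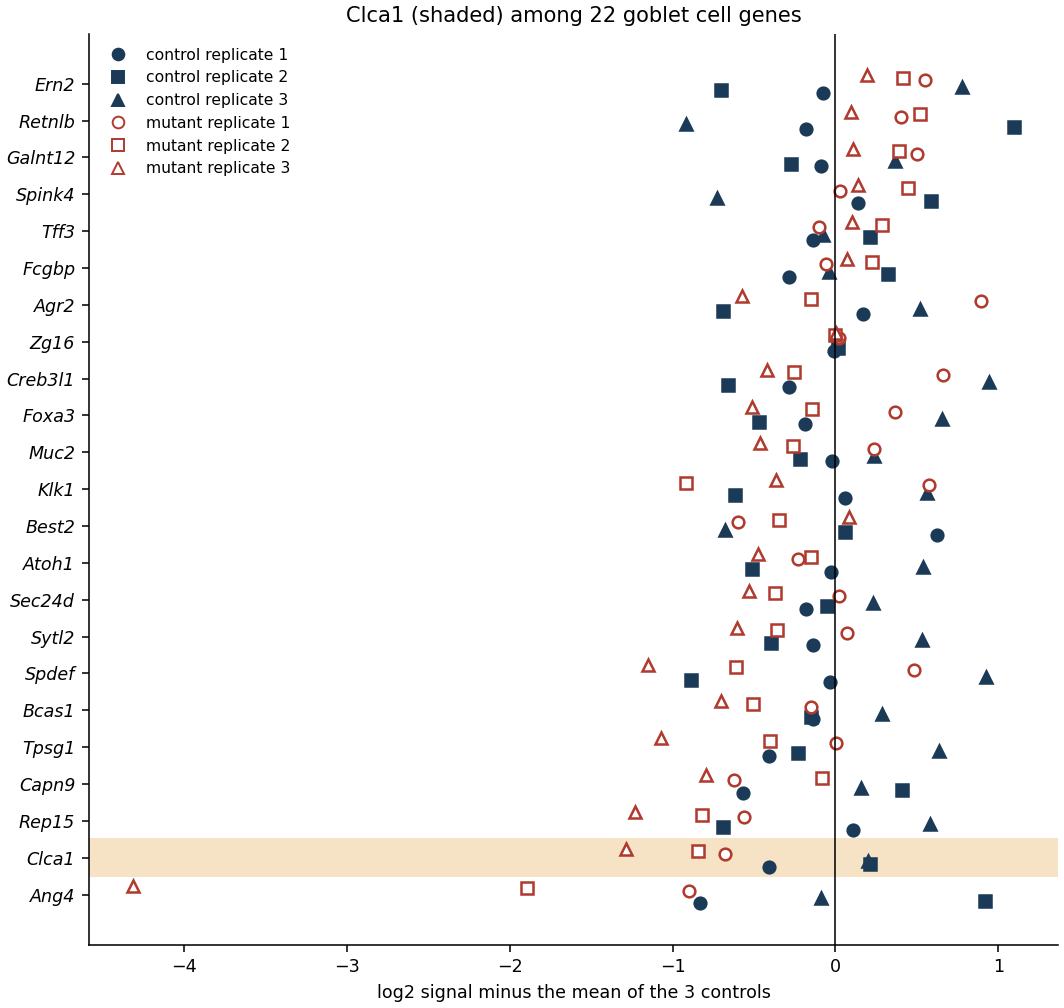
Log2 signal of Clca1 (shaded row) and of 22 goblet cell genes in each array, relative to the control mean (controls filled, mutants open). The mutants of Clca1 lie between -1.28 and -0.68, and only Ang4 has a lower mean difference, with mutants that are spread more widely.

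Clca2 and Clca4c-ps were at or near the signal of probe sets without a target. Clca2, a gene of skin keratinocytes that p53 induces, was between 3.14 and 3.37 in controls and between 3.34 and 3.43 in mutants, a log2 difference of 0.09 (95% interval -0.14 to 0.33, adjusted p = 0.706 from limma). Of 12 measured markers of squamous epithelium, a tissue in which Clca2 is found, none passed limma's test. At an unadjusted p under 0.05, 1 of them was higher, as were 10.0% of all genes. The smallest p among them was that of Krt13, a keratin of moist squamous linings (log2 difference 0.96, adjusted p = 0.0684 from limma), followed by Sfn, an epithelial adaptor protein (0.84, adjusted p = 0.394 from limma), and the median was 0.15. Clca4c-ps was between 3.24 and 4.30 in controls and between 3.58 and 4.27 in mutants, a difference of 0.34 (adjusted p = 0.658 from limma). Both genes overlapped between the groups.

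The genes on either side of the cluster were examined in the same fit. Of the 5 protein-coding genes on each side, 9 were measured and none passed limma's test. At an unadjusted p under 0.05, 1 was higher and none lower (10.0% and 6.18% of all genes). Scaled to uncentred gut epithelium markers 3 passed, in a fit that called 18127 of 45037 probe sets. On the deposited scale the log2 differences of the 9 lay between -0.35 for Ccn1, a matrix-associated growth signal, and 0.68 for Ddah1, which degrades methylated arginine (standard error 0.26, adjusted p = 0.340 from limma). Sh3glb1, next to Clca3a1, differed by -0.08, and Odf2l, next to Clca2, by 0.10. Along the cluster itself the differences were 1.21, 2.90 and 2.31 for the first 3 genes, 0.34 for Clca4c-ps, 2.36 and 0.37 for Clca4b and Clca4a, and -0.94 and 0.09 for Clca1 and Clca2.

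**Figure D5:**
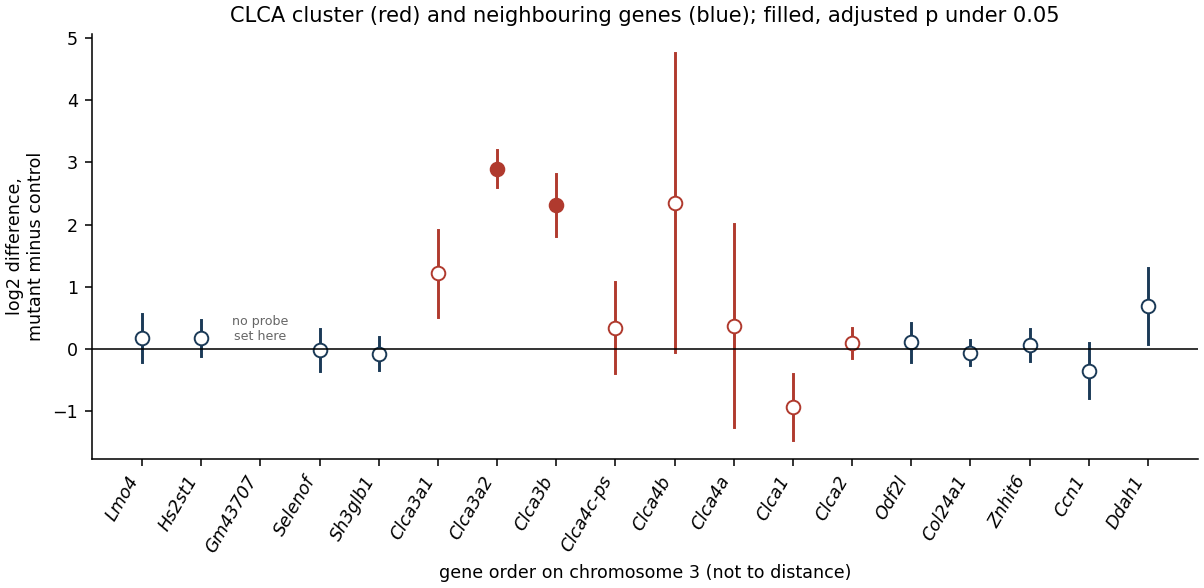
Log2 difference, mutant minus control, with its 95% interval from limma (bars), of the CLCA genes (red) and of the 5 protein-coding genes on each side (blue), in their order along chromosome 3 (horizontal axis, rank and not distance; filled, adjusted p under 0.05). The 9 neighbours measured lie between -0.35 and 0.68, and 3 of the CLCA genes lie above 2.

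Genes of epithelial anion transport, the function with which CLCA proteins were first linked, were counted likewise. Of 21 measured, 1 fell and none rose by limma's adjusted p, against 0.396% and 0.484% of all genes. At an unadjusted p under 0.05, 5 were lower and 3 higher (6.18% and 10.0% of all genes), and the median log2 difference was -0.21. The gene that fell was Clcn2, a chloride channel of the basolateral membrane in the colon, at 10.18, 9.99 and 9.87 in controls and 8.99, 9.08 and 8.95 in mutants (log2 difference -1.005, standard error 0.11, adjusted p = 0.0192 from limma). This call was lost when any of 4 arrays was left out, namely replicates 1 and 3 of the controls and replicates 1 and 3 of the mutants. Clic1, an intracellular chloride channel protein, came nearest to the threshold among the others, with a difference of 0.60 (adjusted p = 0.0504 from limma). Ano1, the calcium-activated channel that CLCA1 stabilises at the cell surface, was picked for this role and differed by -0.49 (adjusted p = 0.546 from limma). Genes of the type 2 cytokine response, which induces Clca1 in the airway, were also counted. None of 21 measured passed limma's test, and 1 was higher and none lower at an unadjusted p under 0.05 (10.0% and 6.18% of all genes). The median was -0.02. Several of the cytokines themselves were at or near background, so that a change in them was hardly measured. Control means were 4.28 for Il4, 3.75 for Il5, 4.58 for Il13, 3.96 for Il25 and 3.57 for Tslp. That of Il33 was higher, at 5.65. Il13ra1, a receptor chain for interleukin-13, had the smallest p (log2 difference 0.34, adjusted p = 0.210 from limma), followed by Ccl11, an eosinophil chemokine (-1.20, adjusted p = 0.423 from limma).

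For each CLCA gene the 5 genes with the most similar profile over the 6 arrays were listed. They came from the 13134 genes with a mean log2 signal of 5 or more. Likeness was the root mean square difference in log2 signal minus the control mean. Genes with a control mean below 5, such as Eya2, Bnipl and Macc1, passed this filter only through their mutant signals. A gene with a similar rise or fall is close by construction, so these lists are descriptions. Closest to Clca3a2 were Eya2, a transcriptional coactivator (0.285), Aldh1a3, which makes retinoic acid (0.314), S100a14, a calcium-binding protein of epithelia (0.377), Fgf12 and Ankrd22. Closest to Clca3b were Bnipl (0.206), Aldh1a3 (0.243), Ankrd22, Gstm6, a glutathione transferase, and Macc1 (0.303). Aldh1a3 and Ankrd22 were thus shared by the lists of Clca3a2 and Clca3b. Aldh1a3 was 6.06, 6.22 and 6.03 in controls and 8.63, 8.49 and 8.66 in mutants.

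Clca1 was closest to Acp5, a phosphatase (0.196), Rasa4, Edem1, which sorts misfolded proteins for degradation, Cldn15, a claudin of gut tight junctions, and Xbp1, a transcription factor of secretory cells (0.225). These 5 differed by -0.74 to -0.90 on the log2 scale, and none passed the test. For Cldn15 the paper reported a fall in the mutants by qRT-PCR and, for the protein, by western blot. Clca3a1 was closest to Slc44a2, a choline transporter (0.135), Greb1, Adgrg2, Phldb2 and Btc, a ligand of the EGF receptor (0.275). Clca4a was closest to Mcpt1 (0.248) and Mcpt2 (0.373), proteases of mucosal mast cells, with Atp8a1, Plek2 and Mboat2, all 5 of which were lowest in control replicate 3. Clca4b had no close match. The nearest was Wfdc18, at 0.650, with 11.40, 9.23 and 6.49 in mutant replicates 1, 2 and 3, followed by Myl7, Nxpe4, Lrg1 and Anxa8. The lists of Clca2 and Clca4c-ps followed signals at background and are led by Ccdc92 and Osbpl3.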

How the data were processed

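The authors hybridised RNA of 6 mice to Affymetrix arrays and, per their methods, compiled the arrays by RMA in FlexArray. The deposited values are log2 signals and were used as they stood. Their median per array was between 5.43 and 5.53, and 0 columns were left unused. The array's own 64 control probe sets were excluded, and the other 45037 were fitted together with limma 3.58.1 in R 4.3.3 (mutant minus control), with Benjamini-Hochberg adjustment over all of them. P-values from limma set the mean difference against the spread between these 3 and 3 mice, with each variance drawn towards those of all probe sets. The number of mice limits the precision. Symbols came from the platform annotation. It gave 1 symbol for 34945 probe sets, several for 932 and none for 9160. Levels were not compared between genes, except with the Y-linked genes of the controls as a measure of background. Named genes are all CLCA genes, the called genes and the 2 smallest p of each list and of the locus, the 5 nearest profiles, Hnf4a, Xist and Eif2s3y. Slc26a3, Muc2, Zg16, Ano1, Sh3glb1, Odf2l, S100a8 and the cytokines Il4, Il5, Il13, Il25, Il33 and Tslp were added outside this rule. The genes and lists were chosen with earlier results of these data known. Alternatives comprised 6 arrays left out in turn, other scalings, filters, variance models, array weights, SAM and a replicate block. The planned scaling subtracted the median of the gut epithelium markers. A version with each marker first centred on its own mean was added after the planned one had been seen. The fit was tested on simulated data. Promoter windows and gene order are from RefSeq (GRCm38.p6).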

Additional observations from a re-analysis of the deposited data

How the results depend on the processing

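The chosen probe set of Clca3a2 passed in each fit by limma, with log2 differences between 2.50 and 3.00, and its other probe set did not (0.76, adjusted p = 0.231 from limma). The chosen one entered the fit of probe sets with a mean of 5 or more only through its mutant signals. By SAM after adjustment no CLCA gene or probe set rose (0), as no probe set of the array was called (0, against 5543 at an unadjusted p of 0.05 or less). By SAM without adjustment 4 genes and 6 probe sets of the family were higher and 1 gene and 2 probe sets lower, against 2, 2, 0 and 0 by limma, and 1 of the 9 locus neighbours passed. With arrays left out in turn, 1 to 2 CLCA genes and 1 to 2 probe sets rose. The log2 difference of Clca4a lay between -0.40 (without control replicate 3) and 0.94 with arrays left out, and 0.37 over all arrays. Scaling to the uncentred gut epithelium median called 18127 probe sets, 286 higher and 17841 lower, against 137 and 102 on the deposited scale, and moved the median of all probe sets from 0.04 to -0.36. There 1 CLCA gene (Clca1) and 2 probe sets fell, 3 locus neighbours passed, and Clca2, Clca4a and Clca4c-ps turned to -0.305, -0.025 and -0.057. With centred markers, chosen after seeing the data, 346 probe sets were called (117 higher, 229 lower), the median was -0.14, no CLCA gene fell and Clca2 was -0.079. The cause was not tested. Replicate numbers did not pair the samples (correlations of deviations -0.025, 0.252 and -0.150). With the replicate block 62 probe sets of the array were called, against 239 without it, and 2 CLCA genes rose in both. The count over the array was 39 without control replicate 1, 52 without mutant replicate 3, 92 without control replicate 3 and 599 with array weights. The signal of Clca2, of Clca4c-ps and of Clca3a2 in controls was at or near background, which limits what can be said of their levels.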

Other observations

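Markers of other cell types and states were counted in the same fit. Of 15 measured cell cycle genes 2 rose by limma's adjusted p, against 0.484% of all genes. These were Cdc6, which licenses replication origins (log2 difference 1.03, adjusted p = 0.0252 from limma), and Bub1b, a kinase of the spindle checkpoint (0.78, adjusted p = 0.0425 from limma). Both calls were lost when any of 4 arrays was left out, namely replicates 1 and 3 of the controls and replicates 2 and 3 of the mutants, and 1 call was left without mutant replicate 1. None of the 15 fell, 12 were higher in all 3 mutants than in any control (14.5% of all genes), and the median was 0.78. Of 12 gut epithelium markers none passed limma's test, 5 were higher and 1 lower at an unadjusted p under 0.05 (10.0% and 6.18% of all genes), and their median was 0.16, 0.21 and 0.21 in the 3 mutants relative to controls. Krt18 and Krt19, keratins of simple epithelium, differed by 0.75 and 0.45 (adjusted p = 0.112 and 0.153 from limma).

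The medians of markers of cells below the epithelium were negative in the mutants, most of all in mutant replicate 2. None passed limma's test, and at an unadjusted p under 0.05 no smooth muscle marker was lower, 3 fibroblast and matrix markers were lower, and of the leukocyte markers 4 were lower and 1 higher (6.18% of all genes lower, 10.0% higher). The median difference of the smooth muscle markers was -1.37, and -0.36 without mutant replicate 2, with Hspb6 at -1.18 and Lmod1 at -1.001 (adjusted p = 0.427 and 0.439 from limma). Fibroblast and matrix genes, 16 in number, had a median of -0.02, -2.93 and -0.41 in mutant replicates 1, 2 and 3 relative to controls, with Vim at -1.09 and Dcn at -1.25 (adjusted p = 0.334 and 0.359 from limma). Their median difference was -1.12, and -0.24 without mutant replicate 2. The median of 16 leukocyte markers was -0.20, -0.36 and -0.08. Their median difference was -0.31, and -0.18 without mutant replicate 2. Ptprc, the CD45 antigen, differed by -1.25 and Cd79b, of the B cell receptor, by -0.83 (adjusted p = 0.186 and 0.260 from limma). The leukocyte markers did not move as 1, with 5 positive and 11 negative differences. Without overlap, 3 lay above the controls and 4 below (14.5% and 8.86% of all genes). The 1 that was higher at an unadjusted p under 0.05 was S100a8 (0.56, adjusted p = 0.306 from limma), with control signals near background. What part these shifts have in the CLCA values was not tested.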
